A study of Mus musculus with 21 samples.

Results

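The T-box genes are transcription factor genes that share a conserved DNA-binding domain. Tbx1, Tbx2, Tbx3, Tbx4, Tbx5, Tbx15, Tbx18, Tbx20 and Tbx22 were taken by gene symbol from both count tables of the series, which gave 9 of 24594 genes, and each was followed through 21 libraries in 7 groups of 3. For the genotype series, the authors dissected PA2 and PA3 (pharyngeal arches 2 and 3) at E10.5 from embryos of 2 genotypes, wild-type (WT) and homozygous for a CRISPR deletion of HIRE1 (HIRE1del), a distant regulatory region of the Hoxa cluster on chromosome 6, and the labels name no cell sorting there. In the stage series, neural crest cells marked by Wnt1::Cre;ROSA RFP, in which Cre driven by Wnt1 switches on a red reporter in the neural crest lineage, were isolated by sorting, at E10.5 out of PA2 and at E12.5 and E14.5 out of the external ear (pinna). The animals were of a mixed C57Bl/6J;CD1 background. The study's methods state that both sexes were pooled, although WT replicate 1 of the genotype series was low in Y-linked transcripts (below). With 3 libraries a group, p-values measure only the spread between these samples. Trypsin was used at the first 2 stages and papain at E14.5, so that stage and enzyme cannot be told apart there.

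T-box factors bind DNA as activators or repressors and are best known for laying out the heart, limbs, palate and pharyngeal region. In the pharyngeal arches, neural crest cells form the connective and skeletal tissue around a core of mesoderm, with ectoderm outside and endoderm inside. Tbx2 and Tbx3 are mainly repressors. Tbx4 and Tbx5 mark hindlimb and forelimb. Tbx15, Tbx18 and Tbx22 form a subfamily active in mesenchyme, and loss of Tbx15 gives the droopy-ear mouse. Tbx20 acts in the heart, and Tbx1 acts in the mesoderm and endoderm of the arches.

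Total counts ranged from 25804446 to 32210131 per library in the genotype series and from 25814151 to 49058941 in the stage series. Levels are CPM, counts divided by the scaled library total in units of 1000000 counts, and 3 counts, the limit that a count of 0 allows, stood for at most 0.117 CPM. Each table was scaled on its own, so a level in one table was never tested against one in the other. Differences were tested with the edgeR quasi-likelihood test on the counts and called at a Benjamini-Hochberg adjusted p under 0.05 over all genes tested. Hoxa2, a gene of the Hoxa cluster that patterns PA2, was 73.4, 77.2 and 84.2 CPM in WT PA2 against 5.75, 4.755 and 7.10 CPM in HIRE1del PA2, and 56.0, 62.9 and 65.1 CPM against 23.7, 25.6 and 22.1 CPM in PA3. The low Hoxa2 level followed the labels in all 6 HIRE1del libraries.

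Of the 9 T-box genes, 6 passed the filter of at least 1 CPM in at least 2 libraries in the stage table and 8 passed it in the genotype table. Tbx5 passed in neither, with 1 to 43 counts per library in the genotype series and 1 to 9 in the stage series. Tbx1 and Tbx20 also stayed out of the stage table. A gene can pass through the groups in which it is high. In the stage table this held for Tbx3 and Tbx4, which passed through E10.5, and for Tbx22, which passed through the pinna. In the genotype table it held for Tbx20 (PA3) and Tbx22 (HIRE1del), so calls of these genes are described with that in mind.

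**Figure D1:**
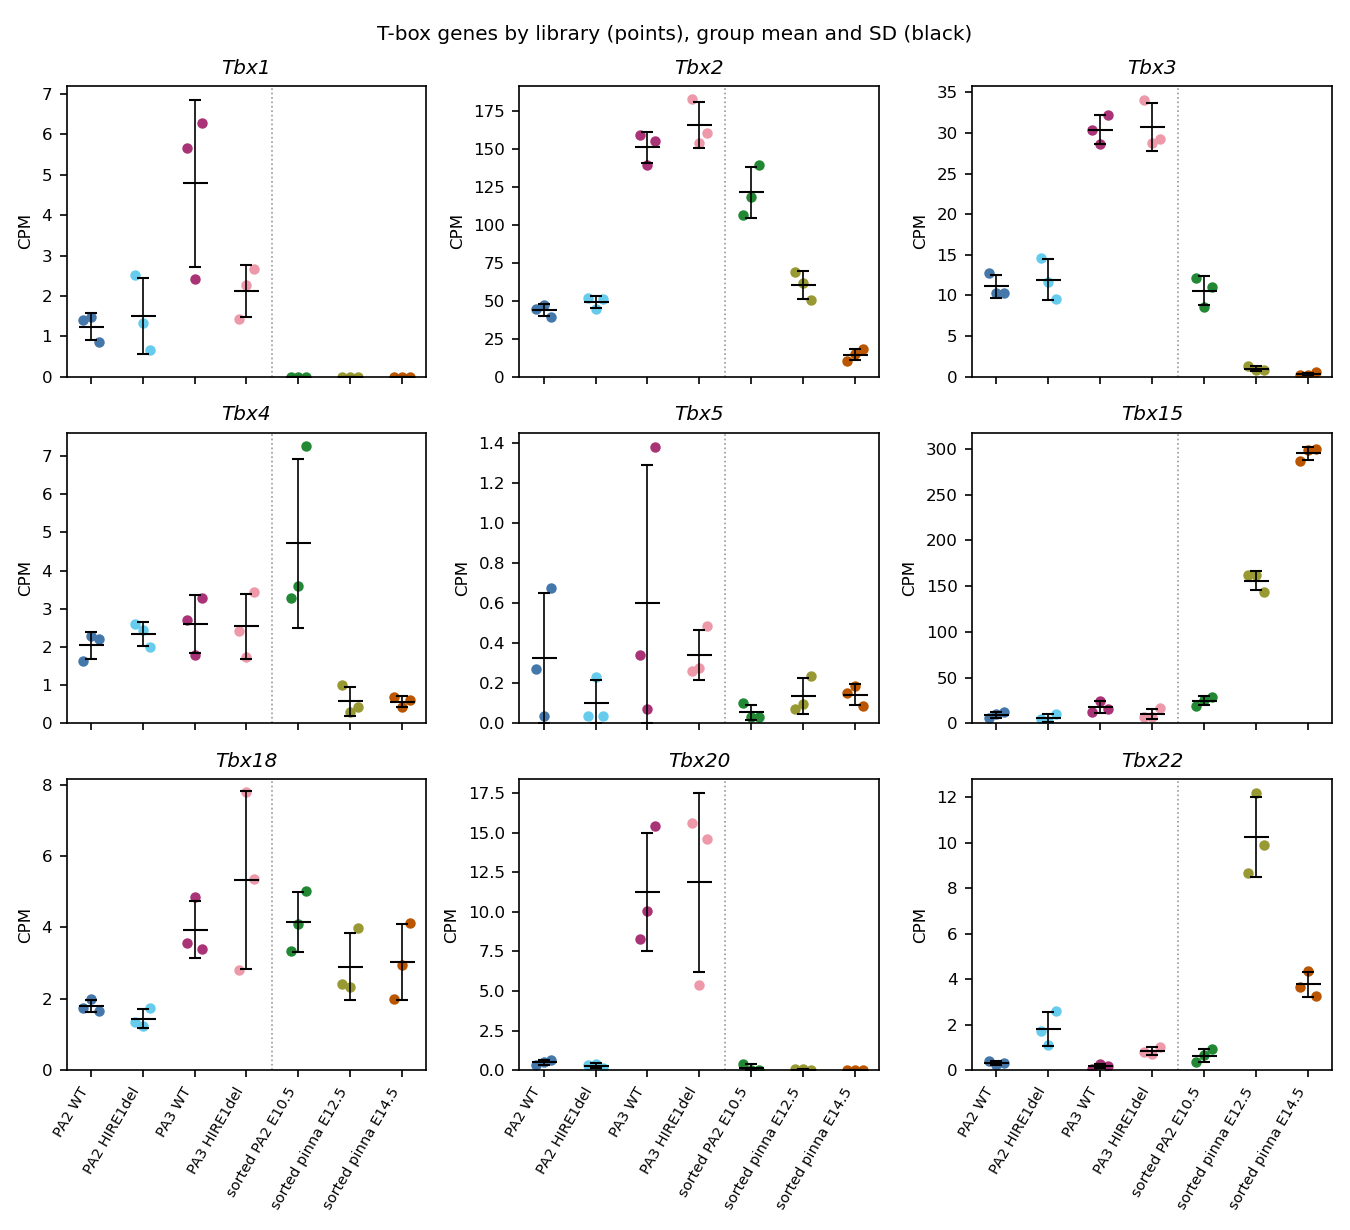
Level of each T-box gene in CPM (vertical axes, from 0, differing between panels) in the 7 groups. Points are libraries, black bars are the mean and SD of 3 libraries, lower bars stop at 0, and the dotted line divides the separately scaled tables; Tbx15 reached 300.3 CPM in the E14.5 pinna while Tbx2 fell to 18.0 CPM or less.

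Per kb of exon, the scale on which genes can be compared with each other, Tbx2 led in every E10.5 group and Tbx15 led in the pinna. In sorted E10.5 PA2 cells Tbx2 stood at 33.6 ± 4.63 CPM per kb (SD, n = 3) and held 75.3% of the summed level of the 9 genes, followed by Tbx15 at 6.64 ± 1.27 and Tbx3 at 1.98 ± 0.341 CPM per kb. The ranges of the first 3 did not overlap, whereas Tbx3 overlapped Tbx4 at 1.39 ± 0.649 CPM per kb. By E12.5 the order had turned, with Tbx15 at 41.6 ± 2.79 and Tbx2 at 16.7 ± 2.59 CPM per kb. At E14.5 Tbx15 alone held 93.4% of the sum at 78.8 ± 1.91 CPM per kb, Tbx2 held 4.76%, and Tbx22 and Tbx18 overlapped at 0.679 ± 0.101 and 0.642 ± 0.227 CPM per kb. In the 4 unsorted groups the share of Tbx2 ran from 66.1% in WT PA2 to 78.8% in HIRE1del PA3. Tbx3 and Tbx15 came next in all 4, with overlapping ranges in 3 of them and apart in HIRE1del PA3.

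**Figure D2:**
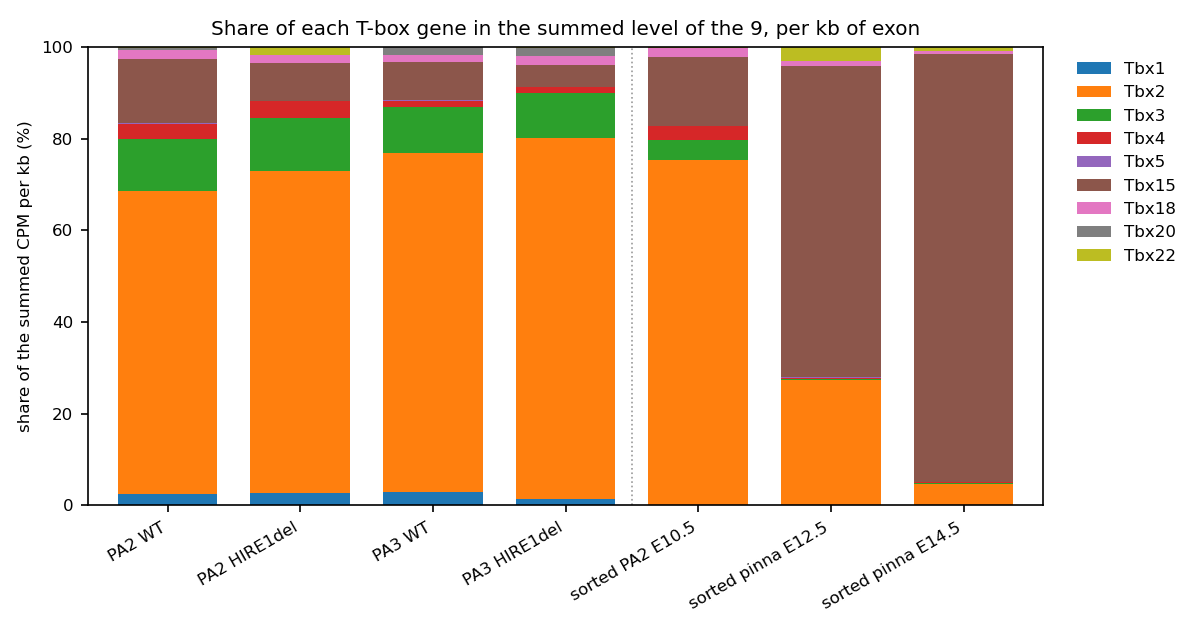
Share of each T-box gene in the summed CPM per kb of exon of the 9 genes (vertical axis, percent) in the 7 groups, from group means. Tbx2 fills most of the bar in the 5 groups at E10.5, and Tbx15 fills 68.0% at E12.5 and 93.4% at E14.5.

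In the sorted lineage, the step from E10.5 PA2 to the E12.5 pinna raised Tbx15 and Tbx22 and lowered Tbx2, Tbx3 and Tbx4. These 5 of the 6 tested T-box genes passed the test, where 68.8% of all genes tested did, 35% higher and 33.7% lower. The next step, to E14.5, gave 4 of 6, 1 higher and 3 lower, against a background of 65.7% (32.6% higher and 33.1% lower). E14.5 against E10.5 gave 5 of 6, 2 higher and 3 lower, against 82% (42% higher and 40% lower). These shares lie near the background, so the counts are no result about the T-box genes as a group. The 3 comparisons share libraries and are not independent of each other.

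Tbx15 lies on chromosome 3 (99240381 to 99354259, plus strand, GRCm38). Its level was 19.6, 26.1 and 28.9 CPM at E10.5, 161.8, 161.8 and 143.7 CPM at E12.5, and 287.1, 298.6 and 300.3 CPM at E14.5. No 2 stages overlapped, and every library of a later stage lay above every library of an earlier one. The log2 fold change was 2.65 ± 0.118 (SE) for the first step (edgeR adjusted p = 1.15e-08), a 6.26-fold rise, and 0.92 ± 0.109 for the second (adjusted p = 2.08e-05). From E10.5 to E14.5 Tbx15 rose 11.9-fold.

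Tbx22, known for X-linked cleft palate in people, lies on chromosome X (107667964 to 107688978, plus strand, GRCm38). Its level was 0.368, 0.652 and 0.915 CPM at E10.5, 8.69, 12.2 and 9.92 CPM at E12.5, and 3.68, 4.37 and 3.26 CPM at E14.5. Tbx22 was thus highest in the E12.5 pinna, and the 3 stages did not overlap. Between E10.5 and E12.5 it rose by 3.98 ± 0.274 log2 units (edgeR adjusted p = 2.61e-07) and then fell by 1.44 ± 0.221 on the log2 scale (adjusted p = 0.000157). At E14.5 it was still 5.81-fold above E10.5 (adjusted p = 4.35e-06). Tbx22 and Tbx15, from the same subfamily, moved in opposite directions between E12.5 and E14.5.

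Tbx18, the remaining gene of that subfamily, lies on chromosome 9 (87702800 to 87731260, minus strand, GRCm38). Its level was 3.35, 4.08 and 5.03 CPM at E10.5, 2.41, 2.32 and 3.98 CPM at E12.5, and 2.00, 2.94 and 4.14 CPM at E14.5. The 3 stages overlapped. Neither step passed the test, with log2 differences of −0.52 (95% interval −1.10 to 0.07, edgeR adjusted p = 0.146) and 0.06 (−0.52 to 0.64, adjusted p = 0.87). It shares 970 exon bases with D030062O11Rik on the other strand, a gene that the count tables do not list, and reads of the 2 cannot be told apart where the library kit keeps no strand.

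Tbx2, a repressor, lies on chromosome 11 (85832551 to 85841948, plus strand). Its level was 106.8, 118.7 and 139.9 CPM at E10.5, 69.2, 61.8 and 50.5 CPM at E12.5, and 10.7, 14.99 and 18.0 CPM at E14.5. Each stage lay below the one before without overlap. Tbx2 fell by 1.01 ± 0.168 (edgeR adjusted p = 0.00025) and then by 2.05 ± 0.179 on the log2 scale (adjusted p = 2.03e-06), so that the E10.5 level was 8.36-fold that at E14.5.

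Tbx3, the close relative of Tbx2, lies on chromosome 5 (119670669 to 119684724, plus strand). Its level was 12.1, 8.58 and 11.1 CPM at E10.5, 1.337, 0.784 and 0.884 CPM at E12.5, and 0.264, 0.252 and 0.547 CPM at E14.5. The stages again did not overlap, and most of the loss came in the first step, a fall by 3.41 ± 0.285 on the log2 scale (edgeR adjusted p = 1.19e-06) against 1.48 ± 0.345 in the second (adjusted p = 0.00284). Between E10.5 and E14.5 the ratio was 29.7-fold for Tbx3. The antisense gene Tbx3os1 shares 115 exon bases with Tbx3 and is not listed in the tables, and Tbx3os2 had 0 or 1 count in each sorted library.

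Tbx4 lies 44.473 kb from Tbx2 on chromosome 11, and Tbx5 lies 147.943 kb from Tbx3 on chromosome 5. Tbx4 was 3.28, 3.60 and 7.26 CPM at E10.5, 1.00, 0.294 and 0.442 CPM at E12.5, and 0.683, 0.420 and 0.613 CPM at E14.5. All 3 E10.5 libraries lay above the pinna libraries, with replicate 3 far above the other two, and the pinna stages overlapped. The fall in the first step was 3.04 ± 0.451 on the log2 scale (edgeR adjusted p = 0.000106), and the second step gave a log2 difference of 0.00 (95% interval −0.90 to 0.90, adjusted p = 0.999). Tbx5 was at 0.0327 to 0.238 CPM throughout, with over 3 counts in only 4 of 9 sorted libraries, all 4 from the pinna.

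Tbx1 had 0 counts in all 9 sorted libraries, which allows at most 0.0631 to 0.111 CPM per library. Tbx20 had 12, 1 and 0 counts at E10.5, 2, 2 and 0 counts at E12.5 and 0 counts in all 3 libraries at E14.5, so 1 library alone exceeded 3 counts. The defining markers of the cell types in which these genes act were also near 0 in the sorted cells: the 6 mesoderm and muscle markers summed to 0.378 to 1.22 CPM over the 9 libraries, the 6 heart markers to 0.621 to 1.86 CPM, and Myf5 was at 0 counts at E10.5. Pharyngeal endoderm markers summed to 0.588 to 3.68 CPM. The neural crest mesenchyme list summed to 703 to 1182 CPM, with Prrx1 and Twist1 at 360 and 209 CPM in mean at E10.5. Kdr, on the endothelial list, was 140.9 CPM at E14.5 against 3.26 CPM at E10.5, while Pecam1 and Cdh5 stayed at or below 2.89 CPM in mean in the 3 groups; the list summed to 7.03 to 9.74 CPM at E10.5 and 110 to 173 CPM at E14.5. The epithelium list summed to 9.43 to 11.7 CPM at E10.5, 7.71 to 9.69 CPM at E12.5 and 22.9 to 37.8 CPM at E14.5, with Cdh1 and Krt5 at 0.279 and 0.113 CPM in mean at E10.5 and 14.6 and 10.03 CPM at E14.5. The neuron list summed to 37.4 to 43.6, 30.2 to 35.9 and 11.0 to 17.5 CPM at the 3 stages. Rn45s, the ribosomal RNA precursor, fell by 1.67 ± 0.304 on the log2 scale from E10.5 to E14.5 (edgeR adjusted p = 0.00032). The part of these shifts in the stage results was not tested.

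The 3 PA2 libraries of the sorted series and the 3 WT libraries of unsorted PA2 can be set side by side at E10.5, without a test. Tbx2 was 121.8 CPM in mean in sorted cells and 43.9 CPM in whole arches, and Tbx15 was 24.9 and 9.49 CPM. Tbx3 was 10.6 and 11.1 CPM. Tbx1 was 0 and 1.24 CPM. Cell sorting, sequencing instrument and read layout differed between the tables.

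In the unsorted arches more genes differed between PA3 and PA2 than between the genotypes. In WT embryos 5 of the 8 tested T-box genes passed the test and all 5 were higher in PA3, where 36.5% of all genes tested passed, 19.1% higher and 17.4% lower. In HIRE1del embryos 5 of 8 passed, 4 higher and 1 lower, against a background of 33.4% (18.7% higher and 14.7% lower). Tbx20 passed the filter only through PA3 and Tbx22 only through HIRE1del, so these counts are no result about the T-box genes as a group. Both comparisons use the libraries of the deletion comparison. Tbx2, Tbx3, Tbx18 and Tbx20 were higher in PA3 in both genotypes. Other tissues moved with the arch as well. Blood markers summed to 1351 to 2129 CPM in the WT PA2 libraries and 10800.5 to 21480.7 CPM in WT PA3. Epithelium markers summed to 219.6 to 242.7 and 442.3 to 561.0 CPM, neuron markers to 76.2 to 78.6 and 152 to 210.1 CPM, and endothelium markers to 273 to 290.2 and 335 to 359 CPM. Neural crest mesenchyme markers went the other way, with 514 to 559 CPM in WT PA2 and 344 to 413 CPM in WT PA3. None of these 5 ranges overlapped between the WT arches, and Rn45s rose by 1.11 ± 0.184 log2 units (edgeR adjusted p = 0.000503). Their part in the T-box differences between the arches was not tested. In bulk arches a difference can come from more cells of a type or more RNA per cell, and these cannot be told apart.

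Tbx20, a gene of heart development, is shown with the 250 bases upstream of its start because it had the largest fold between the arches. It lies on chromosome 9 (24718138 to 24774303, minus strand, GRCm38). The sequence is from RefSeq (GRCm38.p6, chr9:24774304-24774553, minus strand, read 5′ to 3′), and capitals mark CG dinucleotides, of which it holds 22 where the median of 32851 promoter windows is 6.
Tbx20: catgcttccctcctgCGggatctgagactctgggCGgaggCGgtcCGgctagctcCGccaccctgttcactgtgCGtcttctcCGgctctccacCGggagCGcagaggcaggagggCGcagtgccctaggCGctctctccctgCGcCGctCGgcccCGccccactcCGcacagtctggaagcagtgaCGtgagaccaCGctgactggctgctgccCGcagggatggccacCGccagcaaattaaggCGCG

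Tbx20 was 0.349, 0.526 and 0.647 CPM in WT PA2 and 8.30, 10.1 and 15.4 CPM in WT PA3. It was 0.338, 0.390 and 0.111 CPM in HIRE1del PA2 and 15.6, 5.38 and 14.6 CPM in HIRE1del PA3. The arches did not overlap in either genotype, whereas the genotypes overlapped within each arch. Tbx20 passed the filter only through PA3, so it had to differ between the arches to be tested at all. The log2 fold change of PA3 over PA2 was 4.44 ± 0.453 in WT (edgeR adjusted p = 9.97e-06), or 21.7-fold, and 5.39 ± 0.505 in HIRE1del (adjusted p = 5.27e-06). The 6 heart markers summed to 1.47 to 2.84 CPM in WT PA2, with Nppa at 0 counts, and to 12.4, 7.68 and 20.3 CPM in WT PA3. In WT PA3 the library lowest in heart markers, replicate 2, was not the lowest in Tbx20. In HIRE1del PA3 they summed to 33.5, 5.73 and 39.7 CPM, and the second of these libraries was also the lowest in Tbx20. The mean heart sum was 13.4 CPM in WT PA3 and 26.3 CPM in HIRE1del PA3, with mean Tbx20 at 11.3 and 11.8 CPM. The part of heart tissue in the Tbx20 difference was not tested.

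**Figure D3:**
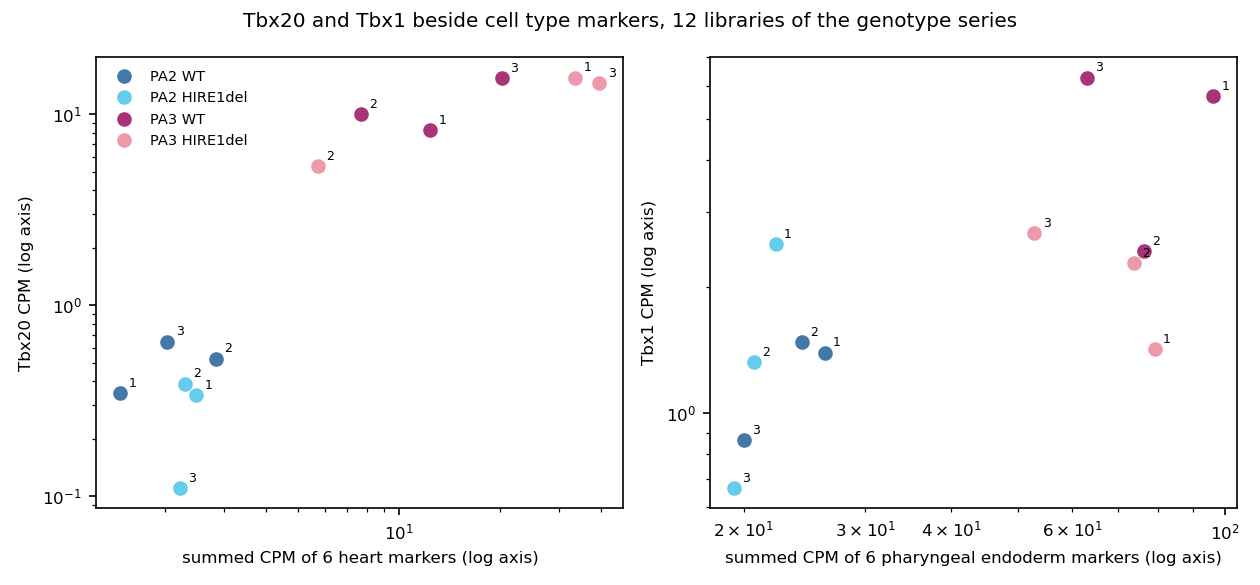
Tbx20 CPM against the summed CPM of 6 heart markers (left) and Tbx1 CPM against that of 6 pharyngeal endoderm markers (right), log axes, for the 12 unsorted libraries, numbered by replicate and coloured by group. The 6 PA3 libraries lie above 5 CPM of Tbx20 and the 6 PA2 libraries below 1 CPM; Tbx1 overlaps between the arches once HIRE1del libraries are included.

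Tbx1 lies on chromosome 16 (18580979 to 18590671, minus strand). It was 1.39, 1.47 and 0.862 CPM in WT PA2 and 5.66, 2.43 and 6.27 CPM in WT PA3, without overlap, and the log2 fold change was 1.95 ± 0.443 (edgeR adjusted p = 0.00404). In HIRE1del it was 2.52, 1.33 and 0.665 CPM in PA2 and 1.42, 2.27 and 2.68 CPM in PA3, which overlapped (log2 difference 0.50, 95% interval −0.39 to 1.39, adjusted p = 0.426). Whether the arch difference itself changed with the genotype did not pass the test either (adjusted p = 0.887). The pharyngeal endoderm markers summed to 20.01 to 26.2 CPM in WT PA2 and to 63.1 to 96.2 CPM in WT PA3, and the mesoderm and muscle markers to 25.1 to 27.3 and 13.3 to 20.8 CPM. Gcm2, a marker of the parathyroid domain of the pharyngeal pouches, was 0.290 CPM in mean in WT PA2 and 10.6 CPM in WT PA3. Their part in the Tbx1 difference was not tested.

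Tbx2 was 45.0, 47.2 and 39.3 CPM in WT PA2 and 159.3, 139.8 and 155.2 CPM in WT PA3. The arches lay far apart, PA3 being higher by 1.79 ± 0.0871 log2 units (edgeR adjusted p = 3.78e-08), or 3.46-fold. In HIRE1del the values were 51.7, 45.0 and 51.4 CPM against 183.2, 154.3 and 161.0 CPM, a 3.36-fold difference. Tbx3 was 12.8, 10.3 and 10.3 CPM in WT PA2 and 30.4, 28.7 and 32.2 CPM in WT PA3, 2.74-fold higher (adjusted p = 4.70e-06). Tbx3 in HIRE1del was 14.6, 11.7 and 9.57 CPM against 34.1, 28.8 and 29.3 CPM, 2.57-fold higher. Both repressor genes thus stood higher in PA3 whether or not HIRE1 was present.

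Tbx18 was 1.74, 2.00 and 1.66 CPM in WT PA2 and 3.56, 4.86 and 3.41 CPM in WT PA3. The log2 fold change was 1.13 ± 0.309 (edgeR adjusted p = 0.0119). In HIRE1del it was 1.35, 1.25 and 1.74 CPM in PA2 and 2.81, 7.80 and 5.35 CPM in PA3 (log2 fold change 1.88 ± 0.316, adjusted p = 0.000596). The arches did not overlap in either genotype, and the library with the highest Tbx18, HIRE1del PA3 replicate 2, had the lowest heart marker sum and the lowest Tbx20 of the 6 PA3 libraries. In WT the call was lost without PA3 replicate 2 (adjusted p = 0.0513) and without WT replicate 1 of both arches (adjusted p = 0.0534).

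Tbx15 was 5.93, 10.49 and 12.1 CPM in WT PA2 and 12.6, 25.0 and 15.8 CPM in WT PA3. The ranges did not overlap but the spread was wide, and the log2 difference of 0.90 (95% interval 0.03 to 1.77) did not pass the test (edgeR adjusted p = 0.129). In an alternative fit, the arches of 1 number and genotype were taken as 1 embryo pool. The labels do not state this pairing, and the correlations between libraries do not settle it. With this pairing as a block the call was made (log2 0.90, edgeR adjusted p = 0.00139). In HIRE1del Tbx15 was 4.81, 2.77 and 10.7 CPM in PA2 and 6.77, 7.45 and 17.0 CPM in PA3 (log2 difference 0.77, adjusted p = 0.224, and 0.00478 with the block). Replicate 3 was the highest of the HIRE1del pools in both arches. Tbx4 stayed between 1.63 and 3.44 CPM in all 12 libraries, with a log2 difference of 0.34 (95% interval −0.20 to 0.89) between the WT arches. Tbx5 reached 1.38 CPM in 1 library, WT PA3 replicate 3, and was at or below 0.677 CPM in the others.

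**Figure D4:**
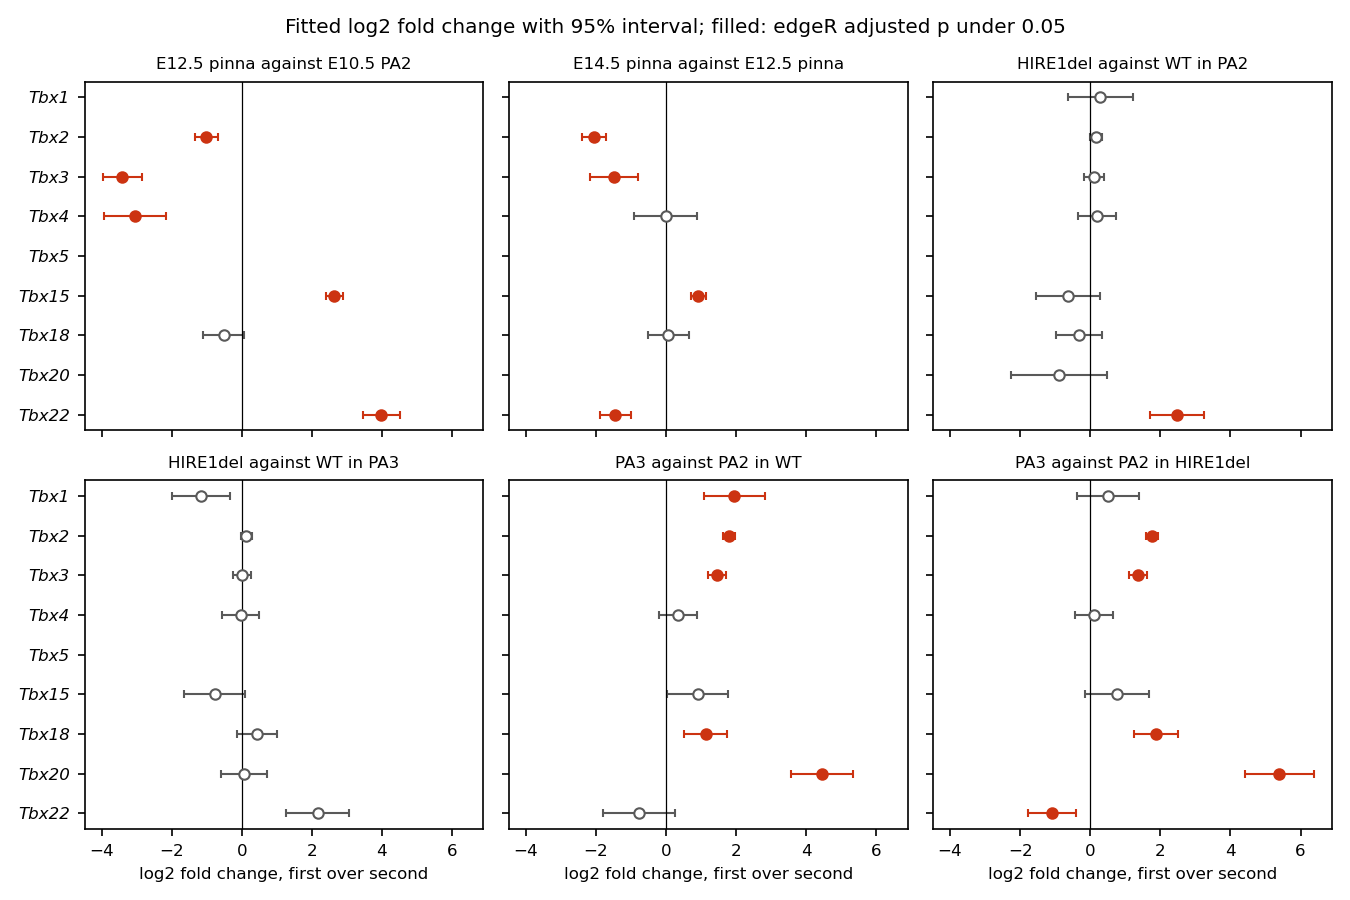
Fitted log2 fold change (horizontal axis, first group over second) of each T-box gene that passed the filter, with its 95% interval, in 6 comparisons. Filled red points passed the edgeR test; in the deletion comparisons this was Tbx22 in PA2 only, at 2.48, while Tbx22 in PA3 at 2.17 did not pass.

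For the loss of HIRE1, 1 T-box gene of the 8 tested passed the test in PA2 and none of the 8 in PA3. Of all genes tested, 0.438% and 0.216% passed (0.118% higher in PA2). In PA2 the gene was Tbx22. It passed the filter only through HIRE1del libraries, so the count is no result about the T-box genes as a group. In PA3, 2 genes had an unadjusted edgeR p under 0.05, Tbx22 and Tbx1, against a background of 9.73%, and DESeq2 called 1. No difference of the deletion effect between the arches passed the test, where 0.0487% of all genes did, and 1 T-box gene had an unadjusted edgeR p under 0.05 against a background of 5.52%.

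Tbx22 is shown with the 250 bases upstream of its first start, since it was the T-box gene called for the deletion. The sequence is from RefSeq (GRCm38.p6, chrX:107667714-107667963, plus strand), with CG dinucleotides in capitals, of which it holds 1.
Tbx22: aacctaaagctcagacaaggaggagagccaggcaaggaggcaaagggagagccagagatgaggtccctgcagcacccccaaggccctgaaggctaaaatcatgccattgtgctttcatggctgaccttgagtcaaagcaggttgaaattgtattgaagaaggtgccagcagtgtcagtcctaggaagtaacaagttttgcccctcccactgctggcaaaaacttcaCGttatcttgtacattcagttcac
The 2 windows differ, with 49.6% G and C for Tbx22 and 68.8% for Tbx20. RefSeq windows were at hand for 5 of the 9 genes, 8 windows in all. Both strands were searched for the T-box core GGTGTG, found in 16.3% of all windows, the Meis core TGACAG, found in 15.9%, and the Hox-Pbx form TGATNNAT, found in 7.68%. None of the 8 windows held any of them, which says only that these letters are not in these stretches.

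Tbx22 was 0.387, 0.246 and 0.339 CPM in WT PA2 (7 to 11 counts) and 1.73, 1.13 and 2.59 CPM in HIRE1del PA2 (29 to 70 counts). Every HIRE1del library lay above every WT library, and the log2 fold change was 2.48 ± 0.396 (edgeR adjusted p = 0.0119), or 5.57-fold. It passed the filter only through HIRE1del libraries, so it had to differ to be tested at all. With no filter the adjusted p was 0.00587. The call was lost without WT PA2 replicate 2 (adjusted p = 0.0766) or replicate 3 (adjusted p = 0.0759), and DESeq2 gave no adjusted p for this low gene (unadjusted p = 6.11e-07). One WT pool, replicate 1, was low in Y-linked transcripts. They summed to 0.271 CPM in PA2, against 132 and 268 CPM in the other WT pools. In PA3 they summed to 6.62 CPM, against 117 and 182 CPM. Without replicate 1 of WT in both arches, the log2 fold change of Tbx22, an X-linked gene, was 2.61 (edgeR adjusted p = 0.0381).

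In PA3, Tbx22 was 0.0765, 0.286 and 0.193 CPM in WT (2 to 8 counts) and 0.823, 0.699 and 1.04 CPM in HIRE1del (20 to 30 counts). The genotypes did not overlap here either. The log2 difference of 2.17 (95% interval 1.26 to 3.07) had an adjusted p of 0.111 in edgeR and 0.0207 in DESeq2, and it differed from that in PA2 by 0.31 (95% interval −0.998 to 1.62, adjusted p = 0.961). Within HIRE1del embryos Tbx22 was lower in PA3 than in PA2 by 1.08 ± 0.349 on the log2 scale (edgeR adjusted p = 0.0288), a call that 4 of the 6 libraries each carried, since it was lost without any one of them (adjusted p up to 0.143). In WT the arch difference was −0.77 (adjusted p = 0.275). The highest unsorted library, at 2.59 CPM, was still below all 6 pinna libraries of the sorted series, which started at 3.26 CPM.

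Tbx1 in PA3 was lower in HIRE1del in mean, at 2.12 ± 0.641 against 4.79 ± 2.07 CPM (SD, n = 3), but the genotypes overlapped and the log2 difference of −1.17 (95% interval −1.99 to −0.34) did not pass (unadjusted p = 0.0155, edgeR adjusted p = 0.401). In PA2 the difference was 0.28 (−0.65 to 1.21). The difference between the arches was 1.45 (unadjusted p = 0.039, adjusted p = 0.887). For the abundant genes the intervals were narrow: the HIRE1del over WT log2 difference was 0.17 (0.00 to 0.34) in PA2 and 0.13 (−0.03 to 0.30) in PA3 for Tbx2, and 0.11 (−0.17 to 0.38) and 0.01 (−0.24 to 0.27) for Tbx3. They were wide for Tbx15, at −0.64 (−1.55 to 0.27) and −0.77 (−1.64 to 0.09), so that these libraries do not settle its direction. Tbx4, Tbx18 and Tbx20 gave differences between −0.88 and 0.43, none past the test.

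Genes that work with the T-box factors were described as lists. Of the other T-box genes, 2 of 8 were tested, and both Tbx6 and Mga, a large Max-binding protein that carries a T-box, rose across the stages: Tbx6 from 0.796 ± 0.269 to 1.51 ± 0.315 and 4.33 ± 0.626 CPM, and Mga from 268 ± 10.2 to 306 ± 5.72 and 414 ± 38.2 CPM (SD, n = 3 each). Of all genes, 35% rose at E12.5 and 32.6% at E14.5 against E12.5. Tbx6 passed the filter only through the pinna, so this count is no result about the list. Of 13 tested partners and co-repressors, 4 rose and 6 fell at E12.5 (median log2 difference −0.02, against 0.01 over all genes tested), where 35% of all genes rose and 33.7% fell. Hand2 went from 130 ± 7.43 to 1.55 ± 0.588 CPM and Sall1 from 6.64 ± 0.637 to 0.477 ± 0.182 CPM, and Hand1 was at 3.61 ± 3.26 CPM and then at 0 counts. Sall1 and Hand1 passed the filter only through E10.5. In WT PA3 against PA2, 11 of 18 partners rose and 3 fell, where 19.1% of all genes rose and 17.4% fell (median log2 difference 0.37 for the list, against −0.000638 over all genes tested). Among them were Gata4, Gata5 and Gata6, partners of T-box factors in the heart, at 2.26 ± 0.584, 5.01 ± 1.77 and 9.01 ± 2.10 CPM in PA3 and 0.157 ± 0.0518, 0.499 ± 0.173 and 1.66 ± 0.455 CPM in PA2. Gata4 and Gata5 passed the filter only through PA3, so they had to be higher there to be tested at all. The list was also chosen with earlier results of these data known, so its count is no result about it. None of the 18 passed for the deletion in either arch.

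The 23 regulators and downstream genes of Tbx1 were all tested in the arches, and 7 were higher and 5 lower in WT PA3 (median log2 difference 0.00, the same as over all genes), where 19.1% of all genes were higher and 17.4% lower. Cyp26c1 and Cyp26b1, which break down retinoic acid, were higher, at 20.2 ± 4.66 and 28.2 ± 6.90 CPM in PA3 against 4.06 ± 1.85 and 9.03 ± 2.57 CPM in PA2. Msc and Lhx2 were lower, at 1.45 ± 0.780 and 4.83 ± 1.46 CPM against 5.30 ± 0.745 and 15.2 ± 2.10 CPM. With HIRE1 deleted, 2 of the 23 passed in PA2, against 0.438% of all genes. Gbx2 rose from 5.51 ± 1.81 to 19.7 ± 5.43 CPM (edgeR adjusted p = 0.0125) and Pax9 fell from 19.2 ± 1.93 to 7.91 ± 1.99 CPM (adjusted p = 0.00112). The list was chosen with earlier results of these data known, so this count is no result about the list. In the stage series 16 were tested and 7 rose and 7 fell at E12.5 (35% and 33.7% of all genes), among them Foxc1 and Foxc2, forkhead genes upstream of Tbx1, which went from 131 ± 1.90 and 43.6 ± 5.13 CPM to 5.32 ± 1.18 and 2.74 ± 0.320 CPM.

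Of 22 genes acting with Tbx2, Tbx3, Tbx15 or Tbx18 in mesenchyme, 19 were tested in the stage series. At E12.5 8 rose and 8 fell, where 35% and 33.7% of all genes did. At E14.5 against E12.5 10 rose and 9 fell, where 32.6% and 33.1% did (median log2 difference 0.29, against −0.01 over all genes). Pax3 rose from 0.304 ± 0.160 at E10.5 to 1.504 ± 0.616 and 13.9 ± 1.06 CPM, while Sox9, the chondrogenic regulator, went from 77.9 ± 1.54 to 30.2 ± 6.33 and 1.76 ± 0.261 CPM. Pax3 passed the filter only through the pinna, where it is high. In the deletion, 1 of 21 passed in PA2 and none in PA3, against 0.438% and 0.216% of all genes. The gene was Alx4, which acts in craniofacial mesenchyme and rose from 10.48 ± 1.86 to 35.5 ± 10.3 CPM. This list too was chosen with earlier results of these data known, so the count is no result about it. Between the WT arches 8 were higher and 8 lower in PA3, against 19.1% and 17.4% of all genes.

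For the 6 T-box genes tested in both tables, the genes of most similar pattern were found among 12871 genes by the root-mean-square (RMS) difference of log2(CPM + 0.5) over the 21 libraries, each gene centred on its mean within each table, so that shifts between the tables do not count. Tbx3 lay closest to Sall1 (0.278 log2 units) and Hsd11b2 (0.314), and Tbx2 to Eya2 (0.347) and Dsg2 (0.378). Tbx15 lay closest to Nfia (0.318) and Gsn (0.375), and Tbx4 to Mtcl1 (0.315) and Peg10 (0.325). Tbx18 had Exoc6 (0.334) and Enc1 (0.344). Tbx22 had the least similar companions, Dync1i1 (0.510) and Alkal2 (0.524). Of these, Nfia followed Tbx15 from 13.7 ± 4.95 to 86.0 ± 1.62 and 136 ± 0.695 CPM across the stages. Sall1 followed Tbx3 between the WT arches, at 8.60 ± 1.04 CPM in WT PA2 and 27.6 ± 4.52 CPM in WT PA3. In HIRE1del PA3 the mean of Sall1 was lower, at 18.4 ± 1.59 CPM, without passing the test. Tbx3 stood at 30.4 ± 1.76 CPM in WT PA3 and 30.7 ± 2.91 CPM in HIRE1del PA3. Dync1i1 shared the peak of Tbx22 at E12.5 (33.5 ± 1.40 CPM against 3.23 ± 0.578 and 17.5 ± 3.08 CPM) but not its level under the deletion, at 2.03 ± 0.419 CPM in WT PA2 and 2.33 ± 0.776 CPM in HIRE1del PA2. Among the T-box genes themselves Tbx2 and Tbx3 were the most alike pair (0.563) and Tbx15 and Tbx3 the least (2.13); the libraries of a group share tissue and stage, so these distances are descriptions.

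**Figure D5:**
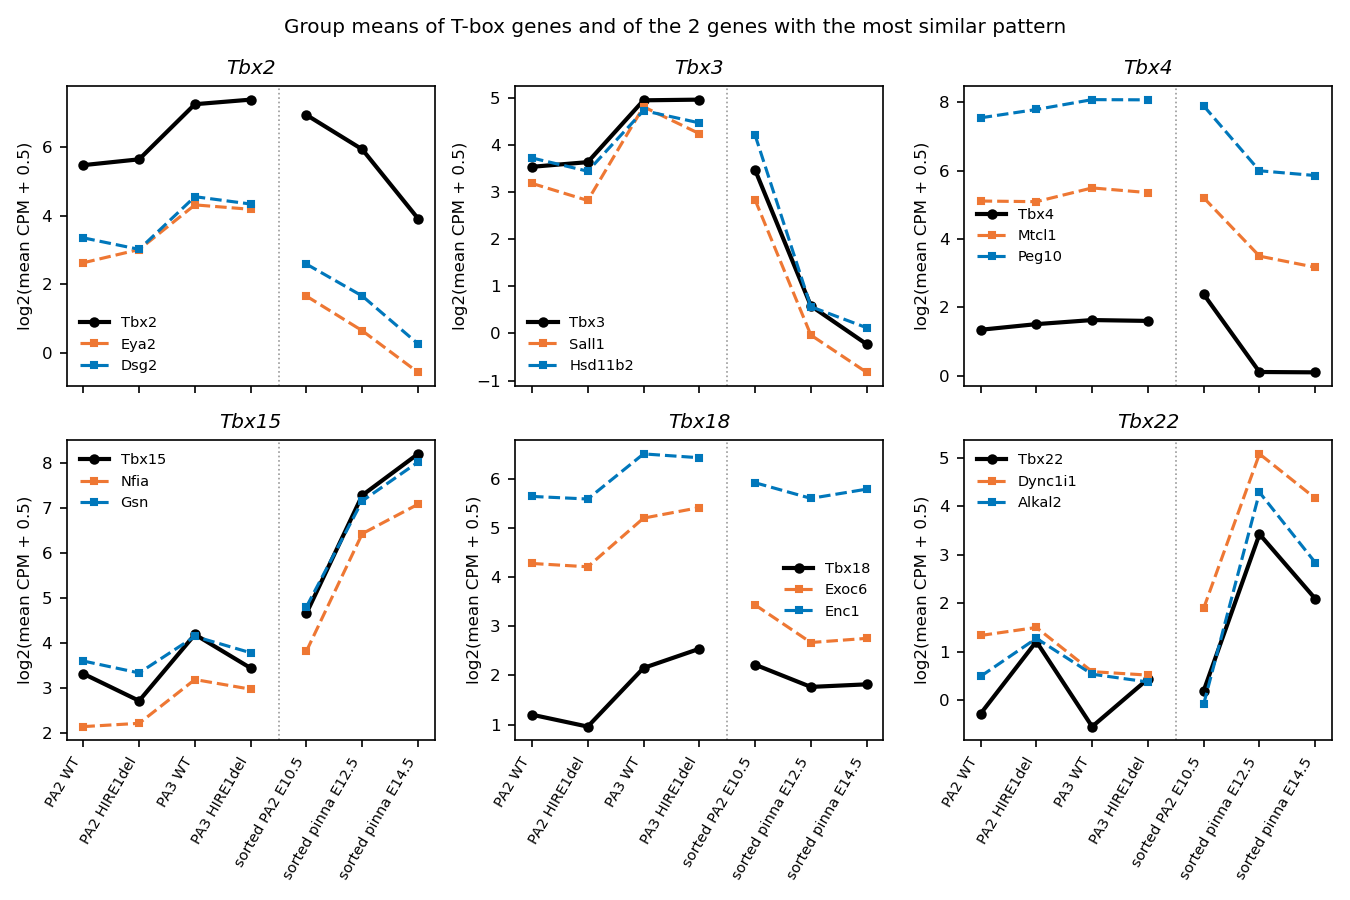
Group means, as log2(mean CPM + 0.5), of the 6 T-box genes tested in both tables (black) and of the 2 genes with the smallest RMS difference from each (dashed), in the 7 groups; the dotted line divides the separately scaled tables. Dync1i1 and Alkal2 share the E12.5 peak of Tbx22, and Nfia and Gsn climb with Tbx15 through the pinna stages.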

How the data were processed

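Per the study's methods, the authors aligned the reads to GRCm38/mm10 with QuasR and HISAT2 and deposited raw counts of alignments per gene in 1 table for the stage series (single-end) and 1 for the genotype series (paired-end); the submitters' processing notes also name bcl2fastq 2.17 and 2.20. The library kit keeps no strand although counting was set to the opposite strand. From these deposited counts, CPM on TMM-scaled totals (edgeR 4.0.16 in R 4.3.3) and quasi-likelihood tests were computed within each table, for 14383 genes (genotype) and 13438 genes (stage) with at least 1 CPM in 2 libraries. Exonic width from the tables gave levels per kb. Coordinates are from GENCODE, promoter windows from RefSeq. The members, gene lists and marker lists were chosen with earlier results of these data known. Named genes were the 9 T-box genes, Hoxa2, the 2 most similar genes of each, and at most 4 called genes a list by size of change; single marker genes were named after their values were seen. Same-numbered PA2 and PA3 libraries of a genotype deviated together over all genes (r = 0.213 to 0.383). They were therefore taken as 1 embryo pool in an alternative fit only, a pairing that the labels do not state. The reported tests between the arches used no block and treated the libraries as independent. Same-numbered libraries gave r from −0.202 to 0.274 across genotypes and from −0.311 to 0.204 across stages. They were not taken as paired there. Libraries of different numbers were not compared across groups. The highest r across genotypes, where embryos are not shared, was above the lowest r within a genotype. These correlations therefore do not settle the pairing. DESeq2 1.42.0, limma-voom 3.58.1, other scalings and filters and leaving out libraries were the alternatives. The script was tested on simulated counts.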

Additional observations from a re-analysis of the deposited data

How the results depend on the processing

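Of the counts of T-box genes called, 125 stayed within 1.5 times the reported count under the alternatives and 4 did not: in HIRE1del PA2 the count of 1 became 0 at an adjusted p under 0.01 and ran from 0 to 1 when single libraries were left out, and in HIRE1del PA3 the count of 0 became 1 with DESeq2. DESeq2 gave no adjusted p for Tbx22 in PA2, so its count there is left out. With the embryo pool as a replicate block 6 genes were called between the arches in each genotype (Tbx15 added) and 0 for the difference of the deletion effect. The replicate numbers were not taken to pair stages or genotypes. As a block they gave 6, 4 and 6 genes called at E12.5, at E14.5 against E12.5 and at E14.5 against E10.5. Tbx18 was added in the first and last (log2 −0.54 and −0.49). For the deletion 1 and 0 genes were called in PA2 and PA3. The shares of all genes called with these blocks are not given here, so the counts with blocks are no result about the T-box genes as a group. Of the levels, 1 moved by more than its SD: Tbx15 at E14.5 was 282.6 CPM by total counts only, against 295.3.

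Sign changes met differences that no setting called, some of them near 0 and others unsettled within wide intervals. With total counts only, E14.5 against E12.5 gave −0.0643 for Tbx18 and −0.12 for Tbx4, and Tbx3 in HIRE1del PA3 −0.00970. Tbx4 at E14.5 against E12.5 was −0.0192 with no filter, −0.00500 with filterByExpr and −0.00375 with DESeq2. Tbx20 in HIRE1del PA3 was −0.0578 with limma-voom and −0.11 without WT replicate 1 of both arches. Leaving out 1 library gave −0.23 to 0.35 for Tbx18 and −0.33 to 0.63 for Tbx4 at E14.5 against E12.5; −0.32 to 0.64 for Tbx1 and −0.0634 to 0.24 for Tbx3 in HIRE1del PA2; −0.18 to 0.42 for Tbx20, −0.0680 to 0.0571 for Tbx3 and −0.32 to 0.18 for Tbx4 in HIRE1del PA3; −0.17 to 0.33 for Tbx4 between the HIRE1del arches; and, for the difference of the deletion effect, −0.56 to 0.68 for Tbx15, −0.0349 to 0.12 for Tbx2, −0.11 to 0.65 for Tbx22 and −0.0773 to 0.23 for Tbx3. The cause was not tested. With 3 libraries a group and under 100 counts per library, as for Tbx22 in the arches, 1 library can decide a call.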
